A study of Mus musculus with 6 samples.

Results

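The regions described here are 4291 stretches of the mouse genome whose chromatin was less accessible 24 h after injury of the olfactory epithelium. They were chosen among 163659 open regions of chromosomes 1 to 19, so they make up 2.62% of them. A cut site is 1 end of a sequenced fragment, the place where the transposase entered open DNA, and accessibility is given as cut sites per 1000000 of the library (CPM). Open regions are runs of adjacent 500 bp tiles in which mean CPM, taken over 6 libraries, reached 5 times the value of the median tile with any cut site. The 4291 regions were chosen by their CPM in these libraries. Each had more than 1 CPM in all uninjured libraries (39.9% of open regions did), lay lower in every injured library than in every uninjured one, and had a mean CPM after injury of at most 0.5 times the mean before (8.6% did). The falls given below therefore describe the choice and are not tested. The rule turned round gave 9868 regions (6.03%) that gained accessibility, which serve as a comparison.

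Horizontal basal cells (HBCs) are the reserve stem cells of the olfactory epithelium. They lie flat on the basal lamina, rarely divide in the intact tissue, and are roused when the cells above them are lost. Open chromatin marks promoters and distal elements to which transcription factors have access, and a stem cell that leaves its resting state closes some of these elements as it opens others. Distal elements are as a rule more specific to a cell state than promoters are.

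Single-cell ATAC-seq was done with 10x Genomics kits on nuclei of YFP-positive, propidium iodide-negative cells sorted from the dissected dorsal epithelium. All mice carried Krt5-CreER and the Rosa26 LSL-YFP reporter, in which Cre driven by the basal keratin gene Krt5 switches YFP on for good, so descendants of HBCs are labelled too. The 3 control libraries (called uninjured) were set against 3 from mice given methimazole intraperitoneally, a drug that strips the epithelium above the basal cells, 24 h earlier. Ages were the same in both groups, at 8 weeks for replicate 1, 6 weeks for replicate 2 and 6 to 7 weeks for replicate 3.

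Barcodes with at least 2000 fragments carried 14825320, 32816498 and 31575996 cut sites in the uninjured libraries (replicates 1, 2 and 3, the order used throughout) and 44875242, 23684386 and 35697658 in the injured ones. Of 4393 cells, 2445 (55.7%) fell into 3 clusters named HBC-like from marker genes, 209 were sustentacular-like, 193 mature neuron-like, and 983, 272, 173 and 118 stayed in 4 unnamed clusters, so the label "horizontal basal cell" does not hold for every cell. HBC-like cells gave 60.2, 58.0 and 14.9% of the cut sites of uninjured replicates 1 to 3 and 70.9, 57.0 and 26.7% of those of injured replicates 1 to 3, so replicate 3 of each group stood apart. Unnamed cluster 7 lay almost wholly in uninjured replicate 3, with 160 of its 173 cells, and gave 32.4% of that library's cut sites, of which 1.42% were in the 4291 regions. Uninjured replicate 3 and injured replicate 3 also shared 34 cell barcodes, against 0 to 4 in the other 14 pairs of libraries. Without these barcodes the rule took 4351 regions, 4052 of them among the 4291.

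Sequence is shown first for the regions of largest fall among those with at least 5 CPM before injury, to let the reader see what kind of DNA lost access. Each is 150 bases of GRCm38, plus strand, 5′ to 3′, at the highest density of cut sites in the uninjured libraries. Capitals mark matches to any of 26 consensus motifs searched on both strands. The region of the fourth largest fall, in Irgm1, and the highest ones of all are not shown.
Mapkap1, chr2:34504376-34504525: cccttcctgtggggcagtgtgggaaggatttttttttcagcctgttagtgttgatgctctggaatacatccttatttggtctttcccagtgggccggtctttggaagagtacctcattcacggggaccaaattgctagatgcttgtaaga
Tectb, chr19:55171176-55171325: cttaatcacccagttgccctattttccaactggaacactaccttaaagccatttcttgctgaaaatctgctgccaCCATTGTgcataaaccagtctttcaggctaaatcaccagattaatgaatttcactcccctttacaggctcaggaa
Atp5h, chr11:115416378-115416527: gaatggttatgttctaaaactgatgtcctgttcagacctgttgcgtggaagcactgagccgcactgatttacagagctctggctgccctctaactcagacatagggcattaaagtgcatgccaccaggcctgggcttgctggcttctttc
Crybb2, chr5:113043529-113043678: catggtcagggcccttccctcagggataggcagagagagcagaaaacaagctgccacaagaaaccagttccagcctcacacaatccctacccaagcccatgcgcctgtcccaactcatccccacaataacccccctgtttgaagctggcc
The Tectb stretch held a SOX match (ACAATGG, here on the minus strand) and the other 3 held none of the 26 motifs.

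The next stretches come from 4 of the regions with the highest CPM before injury, placed in the same way.
Irf1, chr11:53769764-53769913: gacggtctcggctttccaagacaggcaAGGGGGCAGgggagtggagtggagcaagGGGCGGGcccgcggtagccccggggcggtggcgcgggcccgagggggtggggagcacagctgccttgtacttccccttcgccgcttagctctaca
Irf1, chr11:53763813-53763962: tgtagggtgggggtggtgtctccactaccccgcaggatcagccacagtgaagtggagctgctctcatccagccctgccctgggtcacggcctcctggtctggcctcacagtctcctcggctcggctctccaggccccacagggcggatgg
Ski, chr4:155235390-155235539: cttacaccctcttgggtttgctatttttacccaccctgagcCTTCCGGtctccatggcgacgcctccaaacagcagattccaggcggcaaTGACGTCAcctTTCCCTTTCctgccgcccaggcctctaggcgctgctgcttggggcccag
Prkce, chr17:86526154-86526303: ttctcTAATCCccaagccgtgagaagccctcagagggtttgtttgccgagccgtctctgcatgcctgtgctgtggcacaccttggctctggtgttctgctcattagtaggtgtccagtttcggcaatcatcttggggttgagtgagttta
G and C made up 52.7 to 70.7% of these 4 stretches and 42.0 to 56.7% of those near Mapkap1, Tectb, Atp5h and Crybb2. The Ski stretch held matches for ETS (CCGGAAG), IRF (GAAANNGAA) and CREB (TGACGTCA) factors, and the Prkce stretch for OTX factors.

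Shorter stretches of 61 bases show the 2 motifs whose share of regions was highest relative to that among all open regions, among those found in at least 100 of the 4291. They were chosen after the values were seen. The STAT motif (TTCCNGGAA) is in capitals in the first pair and the OTX motif (GGATTA, or TAATCC on the other strand) in the rest.
Itga6 STAT, chr2:71739543-71739603: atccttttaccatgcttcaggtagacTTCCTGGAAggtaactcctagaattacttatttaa
Socs3 STAT, chr11:117923281-117923341: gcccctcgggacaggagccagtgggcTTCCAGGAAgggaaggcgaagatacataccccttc
Tenm3 OTX, chr8:49026327-49026387: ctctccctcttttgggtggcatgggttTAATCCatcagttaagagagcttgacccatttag
Wscd1 OTX, chr11:71758483-71758543: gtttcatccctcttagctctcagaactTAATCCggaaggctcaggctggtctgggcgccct
Lpp OTX, chr16:24643552-24643612: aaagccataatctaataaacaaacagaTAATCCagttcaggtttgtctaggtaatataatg
Tectb OTX, chr19:55171337-55171397: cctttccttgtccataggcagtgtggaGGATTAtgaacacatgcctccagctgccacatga

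The loss was larger at the centre of the regions than at their flanks. The rule asked for a fall inside the regions, whose median width was 1500 bp, and asked nothing of the flanks. This contrast therefore follows in part from the choice and is given as a description. In the central bins, around the middle of each region's highest tile, the mean of the 4291 regions was 0.384, 0.354 and 0.251 CPM per 50 bp in the uninjured libraries and 0.119, 0.0933 and 0.132 CPM in the injured ones. In the outermost bins it was 0.0253, 0.0271 and 0.0217 CPM before and 0.0181, 0.0184 and 0.0189 CPM after. The centre thus stood 15.2, 13.1 and 11.6 times above the flank before injury and 6.56, 5.07 and 7.02 times above it after. The regions kept a peak after injury in all 3 libraries. Only 4 regions had no cut site in an injured library, all in injured replicate 2, and 0 regions were empty in all 3.

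**Figure D1:**
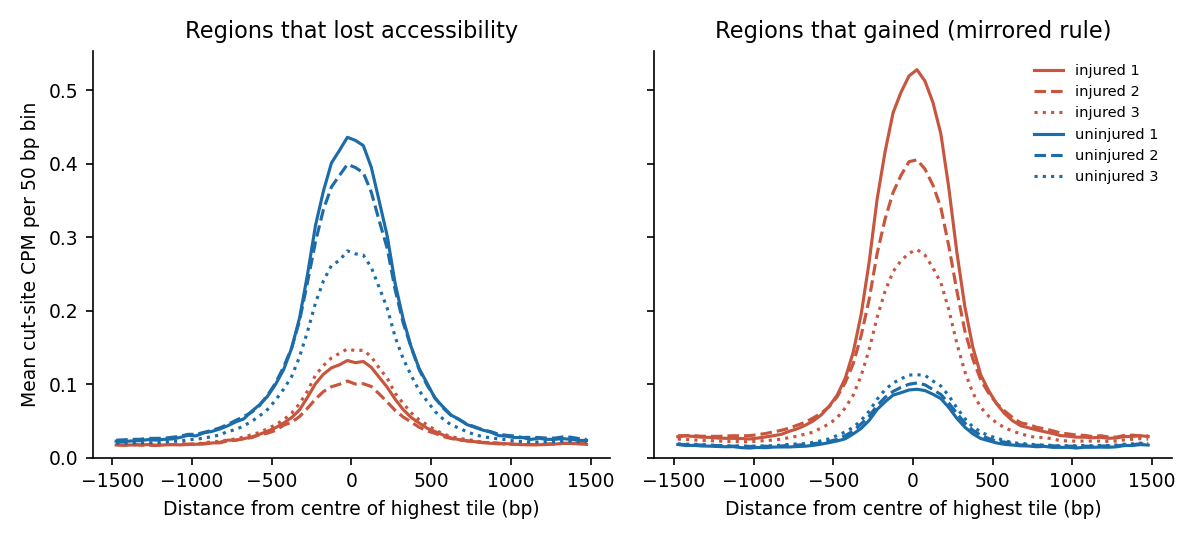
Mean cut-site CPM per 50 bp bin against the distance in bp from the centre of the highest tile, for the 4291 regions that lost accessibility (left) and the 9868 that gained it by the mirrored rule (right), with 1 line per library. On the left the uninjured lines (blue) peak above the injured ones (red), with uninjured replicate 3 the lowest of the blue lines and a red peak that is lower but still present.

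The regions took 2.83, 2.67 and 1.96% of the cut sites of barcodes with at least 2000 fragments in uninjured replicates 1 to 3. After injury they took 0.973, 0.820 and 1.09%. The share of these barcodes' cut sites in all open regions was also lower after injury, without overlap. It was 75.2, 71.6 and 73.7% before and 68.5, 62.9 and 70.2% after, and CPM is not scaled for that difference. With CPM taken over cut sites in open regions, the rule took 3818 regions, 3240 of them among the 4291. The median region had 4.05, 3.96 and 2.85 CPM before and 1.36, 1.14 and 1.48 CPM after. Uninjured replicate 3 was the lowest of its group at 2946 of the 4291 regions, and injured replicate 3 the highest of its group at 2223. Of the pairs made of 1 library from each group, these 2 lay nearest to each other in the share of cut sites and in the median. Over all open regions, every injured library lay below every uninjured one in 14.4%.

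The falls were mostly partial. The median region kept 39.3% of its mean CPM, 440 regions kept 25% or less and 7 kept 10% or less. The lowest value was 7.20%. Mean CPM before injury was 5 or more at 1568 regions and 20 or more at 154. At the limit of the rule, the regions near Camta1, Cstad and Ppp2r5c kept 49.998, 49.984 and 49.971% and were taken, while those near Stard3, Rmi2 and Tcim kept 50.002, 50.015 and 50.024% and were not. The taken region in an intron of Camta1 read 7.49, 8.11 and 4.69 CPM before and 3.16, 2.91 and 4.06 CPM after. The one near Stard3 that was left out read 32.0, 28.3 and 27.1 CPM before and 14.3, 14.1 and 15.3 CPM after.

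The edgeR quasi-likelihood fit over 153082 regions called 1.66% lower after injury at a Benjamini-Hochberg adjusted p of 0.05, and 1601 of the 4291 (37.3%) were among them. The fit called 9597 regions higher (6.27%) and 2534 lower, and without TMM factors 9540 higher and 5556 lower. Without uninjured replicate 1 or injured replicate 2 it called 0 regions lower, with 8070 and 8686 at an unadjusted p under 0.05. It uses the contrast that chose the 4291 regions, so nothing is read from these counts. Each library was also left out in turn. With the rule applied to 5 libraries, the sixth was compared with the group it does not belong to. That group's values chose the regions, and all open regions were not chosen in that way, so the shares restate the rule in part and are given as a description. Injured replicate 2 lay below every uninjured library at 96.6% of the 3772 regions chosen without it, against 41.7% of all open regions. Injured replicate 1 did so at 90.2% of 4854 regions, against 38.2%. Injured replicate 3 did so at 53.5% of 9417 regions, against 22.5%. Uninjured replicates 1, 2 and 3 lay above every injured library at 87.8% of 4623, 85.1% of 4959 and 72.9% of 7467 regions, against 32.4, 29.3 and 33.7% of all regions. The size of the fall differed between libraries left out. Injured replicate 3 was at or below 0.5 times the uninjured mean at 29.5% of the regions chosen without it, and injured replicate 2 at 85.7%, against 8.37 and 23.5% of all regions. The injured mean was at most 0.5 times uninjured replicate 3 at 31.2% of the regions chosen without that library, against 10.5% of all.

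The highest of the regions lay over immediate-early genes, whose transcription rises within minutes of a stimulus. The region over Egr1, which encodes a zinc-finger transcription factor (chromosome 18, 34851501 to 34869000, from exon to flank), read 345, 232 and 298 CPM before injury and 131, 120 and 179 CPM after. Its related gene Egr3 (chromosome 14, 70074001 to 70092500) read 156, 118 and 129 CPM before and 64.4, 53.0 and 74.1 CPM after. At both loci each injured library sat well under the lowest uninjured one. Both regions are long merged runs of tiles over the start of the gene, so the values sum promoter and flanks.

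Regions at Irf1 came next. Irf1 encodes a transcription factor that interferons induce and that switches on genes of antigen presentation. The region over its start (chromosome 11, 53768501 to 53787000) read 136, 88.8 and 100 CPM before and 38.3, 35.6 and 45.4 CPM after. A second region 5014 bp from the start (53761001 to 53765000) read 88.7, 70.7 and 62.1 CPM before and 31.8, 32.0 and 37.1 CPM after. Another region 16014 bp away read 14.9, 11.2 and 14.9 CPM before and 4.41, 4.52 and 7.09 CPM after. At the first 2 the injured libraries lay close together, and at the other injured replicate 3 was above the others of its group.

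The remaining high regions, except that at Aox2, were distal or intronic. The one 10909 bp from the start of Ski, a corepressor that restrains TGF-beta signalling, read 74.2, 64.3 and 39.2 CPM before and 28.9, 26.1 and 32.1 CPM after. In an intron of Notch1, a receptor through which HBCs are held at rest, values were 57.8, 58.5 and 31.7 CPM before and 23.2, 23.8 and 19.3 CPM after. The region 43186 bp from the start of Socs3, an inhibitor of JAK-STAT signalling, read 59.8, 49.3 and 32.4 CPM before and 11.7, 10.2 and 25.0 CPM after. In these 3 regions uninjured replicate 3 was the lowest of its group. Injured replicate 3 stood far above the other injured libraries at Socs3 and below them at Notch1. In an intron of Lpp, which encodes a protein of focal adhesions, values were 54.8, 48.5 and 40.2 CPM before and 21.7, 17.6 and 23.4 CPM after. An intron of the protein kinase C gene Prkce, whose nearest coding start is Gm10309, went from 55.8, 51.4 and 57.7 to 26.8, 21.2 and 32.9 CPM. The region over the start of Aox2, an aldehyde oxidase, went from 53.2, 55.4 and 31.8 to 23.3, 19.1 and 20.8 CPM. At Prkce the 3 uninjured libraries agreed closely. The Ski and Prkce regions kept 49.1 and 49.0% of their mean, also near the limit of the rule.

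The largest falls were at weaker regions. The region in an intron of Mapkap1, a subunit of mTOR complex 2 (chromosome 2, 34504001 to 34505000), read 7.96, 7.68 and 2.12 CPM before, from 118, 252 and 67 cut sites, and 0.423, 0.211 and 0.644 CPM after, from 19, 5 and 23 cut sites. The region 9236 bp from Tectb (chromosome 19, 55170501 to 55171500) read 7.89, 5.27 and 3.36 CPM before and 0.334, 0.464 and 0.616 CPM after. In an intron of Atp5h, a subunit of mitochondrial ATP synthase, values were 8.70, 8.14 and 2.98 CPM before and 0.691, 0.676 and 0.504 CPM after. These 3 kept 7.20, 8.56 and 9.44% of their mean, and at Mapkap1 and Atp5h uninjured replicate 3 lay far below the other uninjured libraries. An Irgm1 intron (chromosome 11, 48862501 to 48865500) was the exception to that order, with 5.26, 3.47 and 8.30 CPM before, the highest in uninjured replicate 3, and 0.535, 0.338 and 0.896 CPM after. The strongest of the 10 was in an intron of Wscd1 (chromosome 11, 71758001 to 71759500), with 18.8, 16.5 and 8.33 CPM before and 1.94, 2.11 and 1.15 CPM after. The others lay near Crybb2, Spock1, Zranb2, Tenm3 and Gsk3b and kept 11.4 to 12.2% of their mean.

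**Figure D2:**
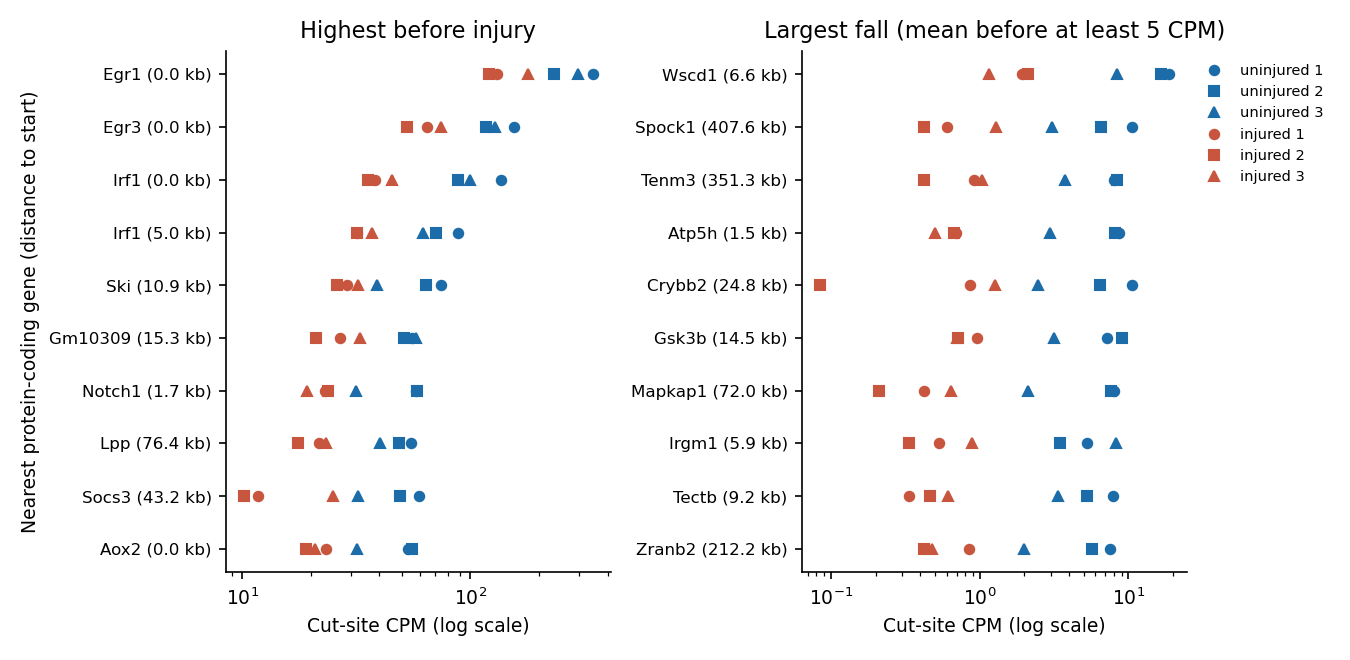
Cut-site CPM (log axis) of the 10 regions with the highest mean before injury (left) and the 10 with the largest fall among those with at least 5 CPM before (right), labelled by the nearest protein-coding gene and the distance to its start in kb, with 1 point per library. Uninjured libraries (blue) lie to the right of injured ones (red) in every row, as the rule requires, and the gap is wider on the right, where regions kept 7.20 to 12.2% of their mean.

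Few of the regions were promoters. Only 102 (2.38%) lay within 1 kb of the start of a protein-coding transcript, against 9.87% of all open regions, 2.58% of the regions that gained accessibility and 22.0% of those that edgeR called lower. The median distance to a start was 37589 bp, against 26016 bp for all regions and 30458 bp for the gains. More than 100 kb from any start lay 1124 regions (26.2%), against 19.2% of all. Introns held 49.1% of the regions and intergenic DNA 47.7%, close to the 49.6 and 43.6% of all open regions. Median GC content was 45.4%, against 47.0% of all and 46.8% of the gains, and 0.419% had the base composition of a CpG island, against 6.97% of all. The regions were spread over every chromosome tested, from 2.20% of the open regions of chromosome 14 to 3.21% of those of chromosome 16.

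The few promoters included genes of several kinds. Besides those at Egr1, Egr3, Irf1 and Aox2, the highest was at Irgm1, an interferon-induced GTPase that acts against intracellular bacteria (chromosome 11, 48868001 to 48873500), with 54.8, 49.5 and 31.0 CPM before and 16.0, 18.5 and 12.9 CPM after. At Cox8b, a subunit of cytochrome c oxidase, values were 53.4, 52.7 and 29.0 CPM before and 13.9, 15.6 and 15.2 CPM after. Atp6v0a4, a subunit of the vacuolar proton pump, read 43.4, 49.4 and 38.9 CPM before and 18.4, 19.8 and 21.5 CPM after. At Cox8b and Atp6v0a4 the injured libraries differed little from each other. The starts of Dapl1, Scgb1c1 (a secretoglobin) and Cfap126 (a protein of motile cilia) kept 48.4, 42.1 and 48.6%. Of the 2534 regions that edgeR called lower, 22.0% lay within 1 kb of a start, above the 9.87% of all open regions, and among the 933 of them that the rule did not take it was 54.4%. The rule's limit on the ratio of means keeps smaller falls out of the 4291, so their share of promoters holds for regions under that limit and not for all regions called lower.

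Motif content, which the rule did not use, is given as a description beside that of all open regions, with no test. AP-1, the FOS and JUN dimer that is activated by stress and wounding, binds TGANTCA. It was present in the highest 500 bp tile of 405 regions (9.44%), against 26.7% of all open regions and 69.3% of the gains. The low share was seen at regions more than 1 kb from a start (9.48 against 28.4% of all such regions), at those with at least 5 CPM before injury (8.61 against 20.2%), and at those most open in HBC-like cells (9.74 against 29.4%). The class in which a region was most open was read from cut sites pooled over the uninjured libraries. Searched over whole regions, the shares were 28.3% of the 4291, 81.9% of the gains and 39.4% of all regions. Whole regions differ in width, with a median of 1500 bp for the 4291 and 1000 bp for the gains and for all regions.

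The OTX motif GGATTA, read by OTX and related paired-type homeodomain factors, was the reverse. It was present in 1386 regions (32.3%), against 20.7% of all and 21.1% of the gains. Among regions most open in sustentacular-like cells it was in 38.5%, against 27.2% of all such open regions, and among those most open in HBC-like cells in 28.2%, against 22.6%. The palindromic STAT motif was in 160 regions (3.73%), against 1.93% of all and 1.93% of the gains. It was in 4.49% of those most open in HBC-like cells, against 2.46%. The IRF motif was in 868 (20.2%, against 15.5% of all), and in 30.4% of the 102 near a start, against 10.9% of all regions near one. Searched over whole regions, it was in 42.9%, against 29.8%, and near a start in 49.0%, against 50.0%, so the difference near starts was not seen there. OTX was in 55.1%, against 36.4%, and STAT in 7.57%, against 4.19%, over whole regions. The NFI half-site (TTGGCA) was in 33.7%, against 27.4%, the SOX motif in 9.74%, against 7.31%, and the TEAD motif (ACATTCC) in 10.7%, against 8.33%.

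Motifs of promoters were rarer than among all regions. KLF/SP (GGGCGGG) was in 6.04%, against 10.1%, and ETS in 2.56%, against 3.89%. Away from starts they were in 5.61%, against 5.85%, and 2.53%, against 2.59%. The string AGATAA of GATA factors was in 23.2%, against 22.0%, the RUNX string TGTGGTT in 12.7%, against 12.6%, the RFX string GTTGCCA in 6.71%, against 6.72%, and the homeobox string TAATTA in 13.5%, against 13.4%. CTCF (AGGNGGCAG) was in 5.41%, against 6.75%. The OTX and homeobox strings share TAAT, and the NFI half-site shares letters with the NFY (GATTGGC) and RFX strings. A match describes letters, and related factors that read 1 string are not told apart.

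**Figure D3:**
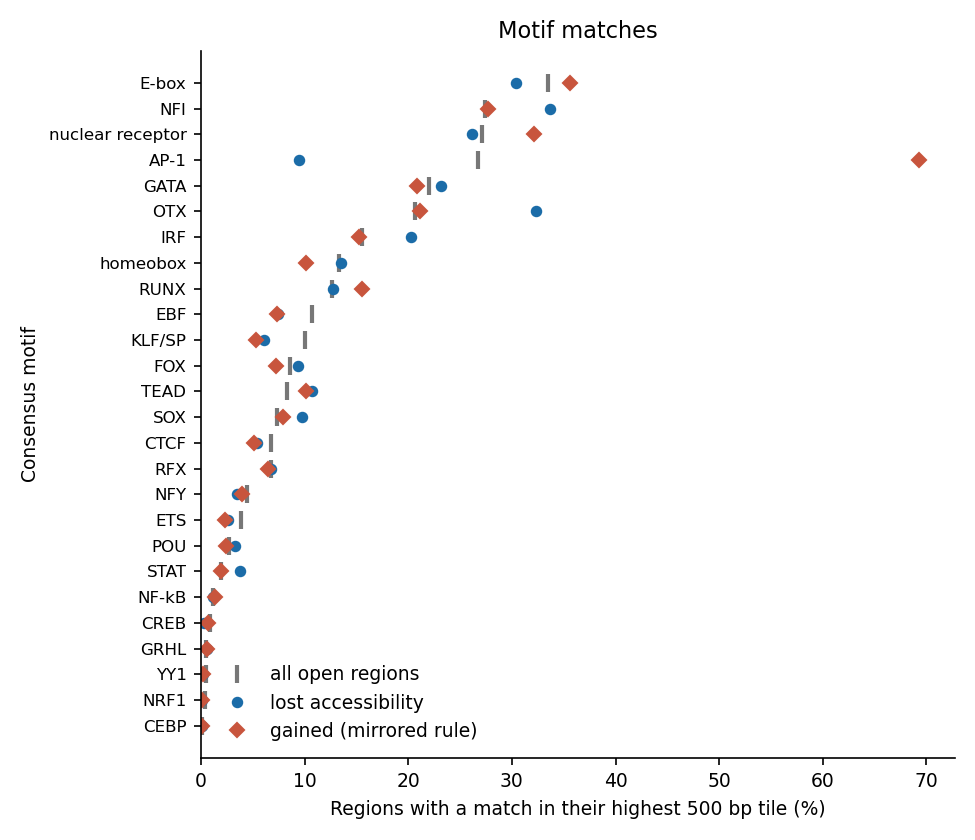
Percentage of regions with a match of each of 26 consensus motifs in their highest 500 bp tile, for the 4291 regions that lost accessibility (blue circles), the 9868 that gained it (red diamonds) and all 163659 open regions (grey bars). AP-1 lies at 9.44% for the losses and 69.3% for the gains on either side of the 26.7% of all regions. The share with OTX is higher for the losses than for the gains or all regions.

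The regions were then followed in single cells, clustered without use of the 4291 regions. Cells do not count as replicates, so values are given per library unless said to be pooled or averaged. With the uninjured libraries pooled, HBC-like cells were the class with the highest CPM at 1869 regions (43.6%, against 15.9% of all open regions). Sustentacular-like cells, the supporting cells that span the epithelium, were highest at 1578 (36.8%, against 17.2%). Their pool was uneven, with 20, 116 and 45 cells from uninjured replicates 1 to 3. Averaged over the uninjured libraries, HBC-like cells supplied over 50% of the cut sites at 3301 regions (76.9%, against 30.8% of all) and sustentacular-like cells at 13. The shares of all open regions are not a matched baseline, since 39.9% of them had more than 1 CPM in each uninjured library. Their median pooled uninjured CPM was 0.735 in HBC-like and 0.757 in sustentacular-like cells, against 4.87 and 4.54 for the 4291. Nothing is read from these differences.

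In HBC-like cells the regions took 3.71, 3.22 and 3.86% of cut sites before injury and 0.921, 0.871 and 1.01% after. Uninjured replicate 3, the lowest of its group over all cells, was thus the highest within this class, and the 3 injured libraries lay close together. The place of uninjured replicate 3 depends on leaving unnamed cluster 7 out of the class. HBC markers led cluster 7 (median 0.719, log2 against the mean of all clusters), with secretory ones next (0.540). Of its 173 cells 160 came from uninjured replicate 3, and 1.42% of their cut sites lay in the regions. The median region kept 26.4% of its mean CPM within HBC-like cells, against 39.3% over the barcodes with at least 2000 fragments. The HBC-like class was made of different clusters before and after injury, since cluster 3 held 295, 476 and 142 uninjured and 10, 4 and 6 injured cells and cluster 1 held 1, 3 and 5 uninjured and 992, 249 and 150 injured cells. Keratins of wounded epithelium, Krt16 and Krt6a, were among the genes that led cluster 1. The few injured cells in cluster 3 put 2.46, 2.40 and 1.95% of their cut sites in the regions, above the 0.905, 0.859 and 0.971% in cluster 1. Cluster 9, also HBC-like, had 3.63, 3.16 and 3.54% before injury, and 61.6% of its cells were called doublets.

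Values for sustentacular-like cells rest on few cells after injury. The regions held 2.94, 3.02 and 3.19% of their cut sites before injury, from 20, 116 and 45 cells, and 0.618, 0.929 and 1.16% after, from 10, 6 and 12 cells. These cells made up 4.45, 13.2 and 7.17% of cells before and 0.758, 1.49 and 1.67% after. Over whole libraries, fewer such cells and less access per cell both lower the CPM. With sustentacular-like cells left out, the rule took 3826 regions, 3482 of them among the 4291. Of the 4291, 92.5% had all injured libraries below all uninjured ones (13.4% of all regions). These cells gave 4.47, 13.7 and 4.58% of cut sites before and 0.537, 1.29 and 0.987% after. Most cut sites that chose the regions were thus kept, and these shares restate the rule in part. The part played by fewer sustentacular-like cells was not tested.

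Cluster 2, which was present in number in all 6 libraries and stayed unnamed because secretory and HBC markers were both open in it, was followed in the same way. Its cells put 1.87, 2.03 and 2.12% of cut sites in the regions before and 1.60, 1.24 and 1.63% after. The groups did not overlap. Averaged over the uninjured libraries, HBC-like cells supplied a median of 59.9% of a region's cut sites and cluster 2 supplied 14.97%. Replicate 3 differed. Cluster 2 gave 29.1% of the cut sites of uninjured replicate 3 and 37.4% of those of injured replicate 3. HBC-like cells gave 14.9 and 26.7% there. The cut sites of each class were among those that chose the regions, so values by class restate the rule in part. The sizes of the falls in the 2 classes are not compared. At 72.6% of the 4291 regions the mean CPM of cluster 2 was lower after injury, against 43.5% of all open regions, and the median region kept 75.8%. Applied to cluster 2 alone, the rule took 335 of the 4291 (7.81%), against 0.957% of all open regions. All open regions were not chosen by their fall, so these differences are given as a description. At Egr1, where HBC-like cells supplied 52.3% and cluster 2 supplied 21.2% of the uninjured cut sites, HBC-like cells were at 404, 276 and 344 CPM before and 120, 119 and 123 CPM after, and cluster 2 cells were at 397, 242 and 320 CPM before and 233, 198 and 251 CPM after. In mature neuron-like cells the regions took 0.422, 0.733 and 0.457% of cut sites before injury and 0.344, 0.314 and 0.392% after, again without overlap.

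**Figure D4:**
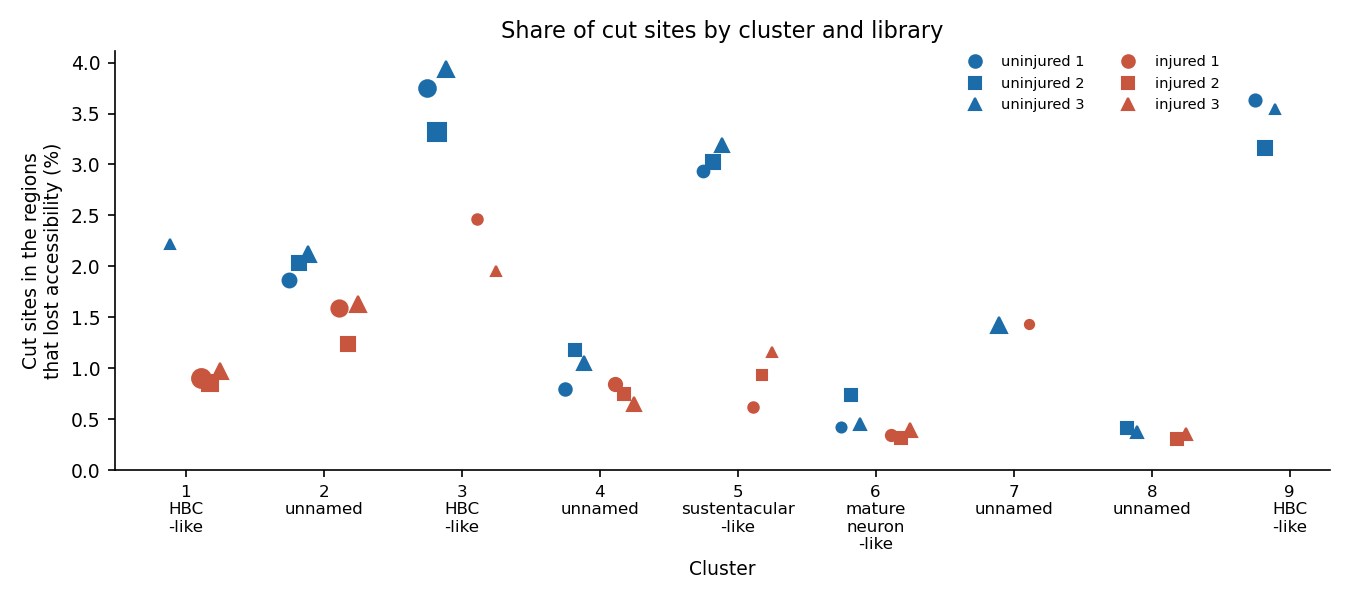
Percentage of each cluster's cut sites that lay in the 4291 regions, by library, for groups of at least 5 cells, with larger points for more cells. HBC-like clusters 3 and 9 lie at 3.16 to 3.93% in uninjured libraries (blue), cluster 1 at 0.859 to 0.971% in injured ones (red), and cluster 2 changes from 1.87 to 2.12% to 1.24 to 1.63%.

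Regions were assigned to the nearest protein-coding start within 50 kb, which gave 2456 of the 4291 a gene. Of all open regions assigned in this way, 2.27% had lost accessibility. Near genes typical of sustentacular cells it was 12 of 135 regions (8.89%), near genes of interferon response and antigen presentation 9 of 112 (8.04%), and near genes of retinoid metabolism and signalling 9 of 170 (5.29%). The retinoid list also gained at 18 regions (10.6%, against 5.80% of all). Lists for cell cycle (3.83%), circadian clock (3.89%), Wnt (2.86%), Notch (2.42%), TGF-beta and BMP (1.97%), axon guidance (1.85%) and glucocorticoid response (2.05%) gave counts of 4 to 11. With 1 library left out the share of all assigned regions was itself 2.01 to 5.13%, highest without injured replicate 3 (5.13%) and without uninjured replicate 3 (4.06%). Axon guidance then reached 8.44% without injured replicate 3, above all assigned regions, and was below them at 3.69% without uninjured replicate 3. Without injured replicate 3 the sustentacular, interferon and retinoid lists stood at 13.3, 9.82 and 7.65%, and without uninjured replicate 3 at 9.63, 13.4 and 5.29%. Without uninjured replicate 1 the sustentacular list stood at 14.1%, against 2.46% of all assigned regions. Near genes of resting HBCs 7 of 230 regions (3.04%) lost and 15 (6.52%) gained. Near genes of activated basal cells 4 of 129 (3.10%) lost and 31 (24.0%) gained, against 5.80% gained near all genes. The shares of losses were thus alike in these lists.

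**Figure D5:**
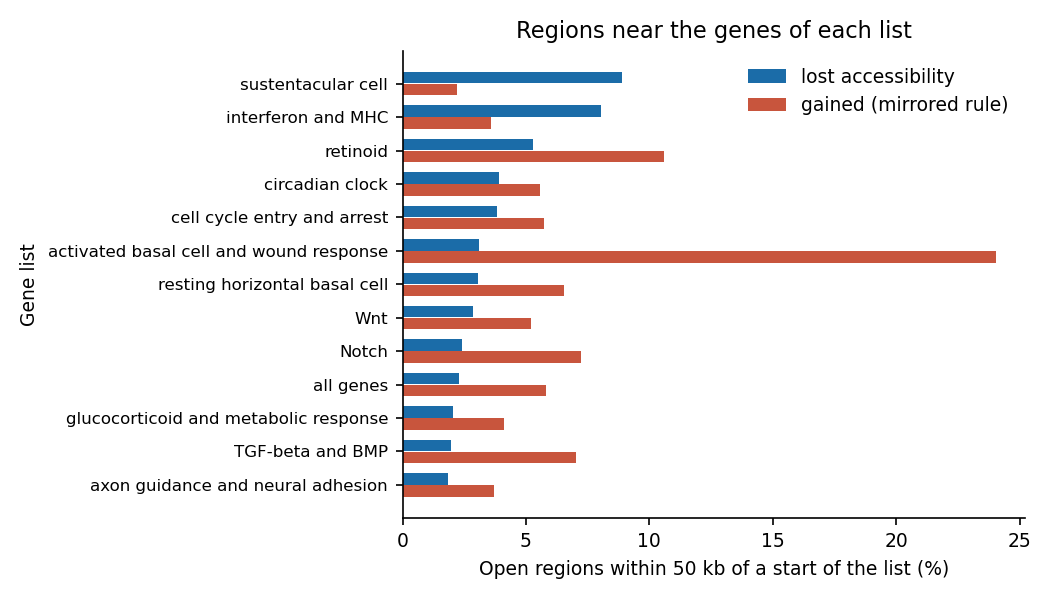
Percentage of the open regions within 50 kb of a start of each list's genes that lost accessibility (blue) or gained it by the mirrored rule (red). The sustentacular and interferon lists have the longest blue bars, at 8.89 and 8.04% against 2.27% for all genes, and the activated basal cell list the longest red bar, at 24.0%.

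In the interferon list the 9 regions belonged to 5 genes. Besides the 3 at Irf1 and 2 at Irgm1, they included the start of Nlrc5, the transactivator of MHC class I genes, with 14.2, 13.8 and 11.3 CPM before and 5.91, 6.04 and 6.75 CPM after. The start of Ciita, its counterpart for class II, read 6.14, 7.37 and 4.43 CPM before and 3.08, 2.79 and 2.66 CPM after. An intron of B2m, the light chain of MHC class I, read 5.73, 3.63 and 3.52 CPM before and 1.34, 1.01 and 2.02 CPM after. The highest tile of the regions over the starts of Nlrc5, Ciita and Irgm1 held an IRF match, and that of the region over the start of Irf1 did not. Without sustentacular-like cells the list again gave 8.04%, against 2.02% of all assigned regions. In HBC-like cells alone it gave 21.4%, against 5.90% of all assigned regions under the same rule.

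The sustentacular list was led by Ugt2a2, a glucuronosyltransferase gene, with 19.4, 19.96 and 20.8 CPM before and 8.85, 9.29 and 11.8 CPM after. The start of the cytoskeletal gene Ermn read 17.6, 22.8 and 15.2 CPM before and 9.89, 10.1 and 6.72 CPM after. At Kcnj13, a potassium channel gene, values were 10.3, 12.7 and 12.3 CPM before and 2.43, 2.24 and 2.77 CPM after, and the region kept 21.1% of its mean. Near Muc2, a mucin gene, 2 regions kept 22.5 and 14.3%, from low means of 4.24 and 2.37 CPM before injury. Single regions of Cyp2f2 and Cyp2a5 and 3 of Fmo2 also fell, as did the region 36661 bp from Hes1, a target of Notch signalling. At Ermn, pooled CPM before injury was 59.0 in sustentacular-like and 24.6 in HBC-like cells, and at Ugt2a2 it was 39.0 and 20.1. Hes1 was the reverse, at 9.69 and 20.5. The share of this list was 6.67% without sustentacular-like cells, against 2.02% of all assigned regions under the same setting.

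Among genes of resting HBCs, Notch1 and a region 46440 bp from Itga6, the integrin of hemidesmosomes, were the highest. The Itga6 region (chromosome 2, 71738001 to 71740500), whose STAT match is printed above, read 19.4, 15.3 and 15.9 CPM before and 8.49, 6.29 and 8.40 CPM after. A region in an intron of Trp63, the transcription factor that keeps HBCs in reserve, read 5.13, 4.63 and 3.04 CPM before and 2.23, 1.35 and 2.30 CPM after. The other 4 regions of the list, near Itga6, Trp63, Pax6 and Sox2, had a mean of under 2 CPM before injury.

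Regions of signalling genes are given by list. The Notch, Wnt and TGF-beta and BMP lists had shares of losses near that of all genes (2.27%), and their shares of gains, 7.25, 5.19 and 7.04%, were near the 5.80% of all genes. In the retinoid list, Rarg, a retinoic acid receptor, read 28.1, 20.5 and 14.0 CPM before and 7.89, 7.56 and 9.94 CPM after, and an intron of Rarb, another one, kept 20.02%. At Dhrs3, which reduces retinal, 2 regions kept 27.4 and 38.7%. In the BMP list, an intron of the receptor gene Bmpr1b read 28.3, 28.3 and 15.5 CPM before and 8.53, 6.04 and 7.20 CPM after. In the Wnt list, a region of Fzd7, a receptor, kept 21.9% and one of the antagonist Nkd1 27.3%. One of Lgr5, a receptor of R-spondins, kept 28.2%, and 3 regions of Znrf3, a ligase that removes Frizzled receptors, 27.9 to 48.2%. The regions at Rarb, Fzd7 and Lgr5 were low before injury, with means of 3.27, 3.24 and 2.83 CPM, against 7.09 CPM at Nkd1. Among Notch genes, regions of the targets Hes1 and Hey1 kept 31.2 and 34.8%. In the clock list, an intron of Npas2 read 46.7, 36.3 and 23.2 CPM before and 15.4, 8.74 and 10.8 CPM after, and 5 of the 21 regions near Hlf fell.

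Some genes had several regions that fell together. They were ranked by that number after the values were seen. Homer1, a scaffold of synapses with an activity-induced short form, had 8 of its 15 regions, spread over chromosome 13 from 93311001 to 93355500. Their summed CPM was 51.7, 39.5 and 44.6 before and 20.2, 16.8 and 18.1 after. Its other regions summed to 98.8, 86.2 and 83.4 CPM before and 57.8, 54.8 and 62.4 CPM after. The whole locus therefore read lower in injured libraries. The cytokine gene Il6, picked from the genes with 4 such regions, had them among 11, with sums of 43.9, 29.5 and 17.7 before and 7.55, 4.22 and 7.09 after, while its other regions summed to 36.5, 28.1 and 18.2 CPM before and 17.2, 15.8 and 18.01 CPM after. Il6st and Lifr, which encode receptor chains of the same cytokine family and were picked from the genes with 3 such regions, had 3 of 27 (with 2 gains) and 3 of 17, with sums of 11.5, 11.9 and 6.08 before and 4.21, 4.01 and 2.58 after at Il6st, and of 18.4, 17.2 and 11.2 before and 3.34, 2.91 and 4.54 after at Lifr. The other regions summed to 118, 108 and 96.4 CPM before and 89.5, 84.8 and 86.9 CPM after at Il6st, and to 74.3, 82.0 and 65.4 CPM before and 49.9, 51.5 and 59.5 CPM after at Lifr. Sgms1, which makes sphingomyelin, had 7 of 53, with 4 gains. Its other regions summed to 226, 233 and 266 CPM before and 244, 214 and 235 CPM after, with the groups overlapping.

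Fragment length at the regions was also measured. The rule did not use length, but the fragments measured are those whose cut sites chose the regions. A short fragment more often has both ends in a region and so counts with both. The shares may therefore restate the rule in part and are given as a description. Fragments under 100 bp, which span no nucleosome, made up 36.7 ± 1.60% of those with a cut site in the regions before injury and 34.2 ± 2.48% after (SD, n = 3, exact two-sided permutation p = 0.3). Below the length of DNA that winds on 1 nucleosome the shares were 48.9 ± 2.19% and 44.2 ± 2.77% (exact permutation p = 0.1, the smallest that 3 against 3 can give), and the groups were parted only by injured replicate 3 at 47.41% and uninjured replicate 3 at 47.44%. Over all open regions they were 49.9 ± 1.88% and 48.9 ± 2.41% (exact permutation p = 0.6). These are 2 limits on 1 measure. Neither difference can pass 0.05 in this design. No source used here says that the replicates came from separate animals beyond calling them biological replicates, so p-values measure the spread between these libraries.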

How the data were processed

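Fragment files of 6 libraries, each from sorted nuclei, gave for every deduplicated fragment its position, barcode and a count of read pairs, as deposited by the authors. The submitters' processing notes name mm10 and Cell Ranger 2.0.0, and the matrix headers software 1.2.0, while the aligner is not given in the sources used here. Fragments all ended within the GRCm38 chromosomes. Open regions were defined on the cut sites (both fragment ends) of all barcodes. Cut sites were then counted in barcodes with at least 2000 fragments (420 to 1338 per library). These counts were divided by the total of the same barcodes in each library to give CPM. Deposited matrices were not used. Intervals used to compare settings cover counting error only, at 95%.

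Genes were those of GENCODE M21 basic, with all starts of protein-coding transcripts. Motifs were consensus strings written by hand, searched on both strands in the highest 500 bp tile. Cells (at least 20% of cut sites in open regions) were clustered on 121798 regions (TF-IDF, 30 components less 1 that followed depth, 15 neighbours, Leiden resolution 0.5). Clusters were named from marker lists over gene bodies plus 2000 bp upstream, by a rule set after the data were seen. The leading list needed a median of at least 0.5 (log2 against the mean of all clusters). No other list at 0.5 or more could lie within 1 of it. The leading genes could not hold more markers of another list than of its own. Cluster 1 was named with 0.541 for HBC markers, against 0.329 for immune ones. Doublets, called from an excess of stretches with more than 2 fragments, numbered 399 of 4393 and were kept, with their removal as an alternative.

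Groups were compared over samples by edgeR 4.0.16 (quasi-likelihood, TMM, filterByExpr, Benjamini-Hochberg) in R 4.3.3, checked on simulated counts, with DESeq2 1.42.0 as an alternative, and single values by exact permutation tests. Regions named in full were the 10 highest before injury, the 10 of largest fall with at least 5 CPM before, the 6 highest other promoters, up to 3 near genes of the resting HBC and sustentacular lists, and 3 on each side of the limit. Genes of the 12 lists are given beside them, a few of which, with 1 sequence, are not reported here. The regions, lists and motifs were chosen with earlier results of these data known. Python 3.11.15, scikit-learn 1.9.0, igraph 0.11.9 and leidenalg 0.10.2 were used.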

Additional observations from a re-analysis of the deposited data

Results flagged for a closer look

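Barcodes with fewer than 2000 fragments, which entered only the definition of open regions and an alternative with all barcodes (4043 regions), also carried cut sites in the 4291 regions. The regions took 1.60, 1.32 and 1.04% of the cut sites of these barcodes in the uninjured libraries, in order of replicate, and 0.829, 0.990 and 0.885% in the injured ones. These shares did not overlap between groups, and the uninjured values lay below the 1.96 to 2.83% of the barcodes that were used. The share of these barcodes' cut sites in all open regions was lower after injury too, at 60.3, 46.2 and 54.0% before and 37.9, 39.4 and 38.8% after. Out of their cut sites in open regions, the 4291 took 2.65, 2.86 and 1.92% before and 2.19, 2.51 and 2.28% after, and the groups overlapped. The regions that gained accessibility took 3.25, 1.96 and 2.35% of the cut sites of these barcodes before and 2.87, 2.17 and 1.46% after. The source of these fragments was not tested.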

How the results depend on the processing

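The rule took 3294 to 4351 regions under the settings that kept all 6 libraries, except 10601 in HBC-like clusters only and 1236 with a mean after injury of at most 0.333 times that before, and 3772 to 9417 with a library left out. The share within 1 kb of a start was 3.61% in HBC-like clusters, 10.3% within 5 kb and 2.14 to 2.89% with a library left out. Median GC content was 46.0% with tiles at 10 times the median, 46.2% in HBC-like clusters, 45.8% without sustentacular-like cells and 45.2 to 46.2% with a library left out. For 17 of 26 motifs, AP-1, OTX, STAT, IRF, NFI, SOX and TEAD among them, the share stayed on its side of that of all open regions in all 12 settings that searched the highest tile. Over whole regions 4 of the 17 changed side, CTCF (14.0 against 13.4%), NFY (10.2 against 9.03%), E-box (62.7 against 53.9%) and nuclear receptor strings (58.2 against 46.4%). With a library left out AP-1 was at 9.02 to 11.7%, OTX at 27.4 to 31.8% and STAT at 3.04 to 4.08%. For 5 of 12 gene lists (sustentacular, interferon, retinoid, cell cycle and clock) the share stayed above that of all assigned regions in the 12 settings tried for lists. The lists hold few regions, and a low region's CPM rests on few cut sites.

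edgeR called 9597 regions higher and 2534 lower. The lower count was 5556 without TMM factors, 4542 by DESeq2 and, in HBC-like clusters only, 16767, with 23213 higher. With a library left out the counts were 0 to 17271 higher and 0 to 4839 lower. Those of 0 came without uninjured replicate 1 (18529 higher and 8070 lower at an unadjusted p under 0.05) and without injured replicate 2 (16704 and 8686), where DESeq2 was not run. With the replicate number as a block edgeR called 10517 higher and 4118 lower. Same-numbered libraries, whose ages matched, had deviations with correlations of 0.026, 0.261 and 0.259. Those of unlike number ran from −0.360 to 0.268, the highest between uninjured replicate 2 and injured replicate 1. Deviations from the mean of so few libraries are tied to each other, so these values cannot decide whether the numbers pair the samples. The main fit was made without the block. The fall in HBC-like cells, 2.66 percentage points of cut sites, was 2.53 to 2.85 with a library left out of the means. The difference in fragments under 100 bp, which fell by 2.51 points, then lay between −3.87 and −1.44. Both ranges keep the regions chosen with every library, so the library left out still helped to choose them. The cut sites of HBC-like cells, and of the fragments measured for length, were among those used in that choice. The range of the fall in HBC-like cells therefore restates the rule in part, and that for fragment length may do so. Both are given as a description.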
